A study of Danio rerio with 14 samples.

Results

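The 3 genes of sterol and bile acid metabolism described here, hmgcs1, scp2a and nr0b2a, were followed in the abdomen of zebrafish larvae after knockdown of the deiodinases. Their transcripts were chosen by measured values, because each one passed the study's thresholds in D3MO against SCMO. These are an adjusted p under 0.05 together with a change of more than 1.5-fold, and a probe that passed both is called below. Changes are given as log2 fold change (log2FC). The D3MO against SCMO values are therefore a description and carry no test. Each gene had 1 probe under its name, so the set is 3 probes of the 13270 on which the contrasts were deposited. It is 3 of the 740 genes that had a name. Most probes had no name, so further probes of these genes may have gone unseen. In D3MO the transcripts of hmgcs1 and scp2a were lower than in SCMO, at 59.5% and 52.0% of the control level, and that of nr0b2a was higher, at 163%. In D1D2MO none of the genes was called, where only 0.859% of all probes were called. nr0b2a lay at 100.3% of the control level there, while hmgcs1 and scp2a lay at 87.2% and 76.7%.

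All larvae were of the wild type strain WIK, were microinjected into the yolk with a morpholino (an antisense oligonucleotide that blocks translation for some days) and were dissected at 72 h post fertilization (hpf). The control group received a standard control morpholino (SCMO), and the knockdown groups received either a combination for deiodinases D1 and D2 (D1D2MO) or one for D3 that is directed at dio3b (D3MO), with 4 biological replicates each. D1 and D2 produce the active thyroid hormone T3 and D3 inactivates it, so the knockdowns are expected to disturb the hormone balance in opposite directions. Hormone levels are not among these data. The paper infers the hormone state of both groups from earlier rescue and T3 supplementation experiments. The RNA of pooled abdomens, with 20 larvae a pool in the labels, was hybridised on 14 two-colour arrays, 6 pairing SCMO with D1D2MO, 4 pairing SCMO with D3MO and 4 pairing the knockdowns. The methods text gives a larger pool. The knockdown is transient, and dio3a was not targeted. Since a morpholino acts on translation, the deiodinase mRNA would not check the labels, and no probe of a deiodinase had a name here.

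The dissected abdomen contained liver and gut along with the yolk and the swim bladder, and every value is an average over these tissues. Fewer cells of a type and less RNA per cell cannot be told apart in such pools. Values are those of the authors' limma fit as deposited. The standard error (SE) and the 95% interval were recovered from the deposited p, and p-values were adjusted by Benjamini-Hochberg over all 13270 probes within a contrast. Values of single arrays were not analysed here. SCMO, D1D2MO and D3MO filled 10, 10 and 8 array channels with 4 replicates each, so pools were hybridised more than once. Which pool was on which array cannot be said here. Nor can it be said whether the SE covers the spread between the 4 replicates or only that between arrays.

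Animal cells make cholesterol through the mevalonate pathway, in which HMG-CoA synthase condenses acetyl-CoA with acetoacetyl-CoA to the substrate of HMG-CoA reductase. Sterols and fatty acids then travel between membranes and into peroxisomes on carrier proteins and leave the cell in lipoproteins. The liver converts cholesterol into bile salts (in zebrafish mainly a bile alcohol sulfate), and in mammals bile acids bind the receptor FXR, which induces the small heterodimer partner SHP, a repressor of bile acid synthesis genes such as CYP7A1. In mammals thyroid hormone is known to raise cholesterol synthesis, cholesterol uptake and bile acid formation in liver. A larva of this age lives on yolk lipid, which the yolk syncytial layer packs into lipoproteins.

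hmgcs1 encodes the cytosolic HMG-CoA synthase, the step before the rate-limiting enzyme of cholesterol synthesis. Its probe (A_15_P102310) had a log2FC of -0.75 in D3MO against SCMO (SE 0.077, 95% interval -0.93 to -0.57), or 59.5% of the control level with an interval of 52.4% to 67.5%. It ranked 16th from the lowest of all 13270 probes and 15th by size among the 35 called probes that fell. In D1D2MO the log2FC was -0.20 (SE 0.070, 95% interval -0.36 to -0.033), or 87.2% of SCMO, with an adjusted p of 0.182 in the limma fit. This interval lies below 0 taken alone, but the difference was not called among 13270 probes. Set directly against D1D2MO, hmgcs1 in D3MO was at 68.2% (60.1% to 77.4%), with a log2FC of -0.55 (SE 0.077) and a limma adjusted p of 0.0144. The measured level was lowest in D3MO, by whose difference from SCMO the gene was chosen. The step between the knockdowns stayed short of the fold threshold.

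scp2a encodes a sterol carrier protein. Its mammalian counterpart SCP2 yields a peroxisomal thiolase (SCPx), which takes part in shortening the cholesterol side chain to bile acids and in oxidising branched fatty acids, and a small lipid transfer protein. The array probe (A_15_P119169) does not say which of the forms it measured. Its log2FC in D3MO against SCMO was -0.94 (SE 0.106, 95% interval -1.19 to -0.69), or 52.0% of the control level with an interval of 43.7% to 61.9%. That was the 7th lowest value of all probes and the 6th by size among the 35 called probes that fell. D1D2MO had a log2FC of -0.38 (SE 0.095, 95% interval -0.61 to -0.16), or 76.7% of SCMO, with a limma adjusted p of 0.0880. In the direct contrast scp2a in D3MO was at 67.8% of D1D2MO (57.0% to 80.7%), with a log2FC of -0.56 (SE 0.106) and a limma adjusted p of 0.0319. The order of the groups was that of hmgcs1, with SCMO highest, D1D2MO next and D3MO lowest. The direct contrast had a limma adjusted p under 0.05 for both genes, whereas D1D2MO and SCMO did not differ beyond the threshold for either. Each of these contrasts shares samples with the one that chose the genes, so the order is a description.

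nr0b2a is a zebrafish counterpart of mammalian NR0B2 (SHP), a nuclear receptor without a DNA-binding domain that represses transcription with other receptors. Its probe (A_15_P548752) had a log2FC of 0.71 in D3MO against SCMO (SE 0.088, 95% interval 0.50 to 0.91), or 163% of the control level with an interval of 141% to 188%. It was the 80th highest of all probes and the 69th by size among the 109 called probes that rose. The log2FC in D1D2MO was 0.0046 (SE 0.079, 95% interval -0.18 to 0.19) with a limma adjusted p of 0.980. The interval runs from 88.1% to 114% of SCMO. It sets no firm bound on the change, since its SE may not cover the spread between replicates. Against D1D2MO, nr0b2a in D3MO rose with a log2FC of 0.70 (SE 0.088, 95% interval 0.49 to 0.91) and a limma adjusted p of 0.0105. Here SCMO and D1D2MO were not distinguishable. D3MO, by whose difference from SCMO the gene was chosen, lay above both.

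**Figure D1:**
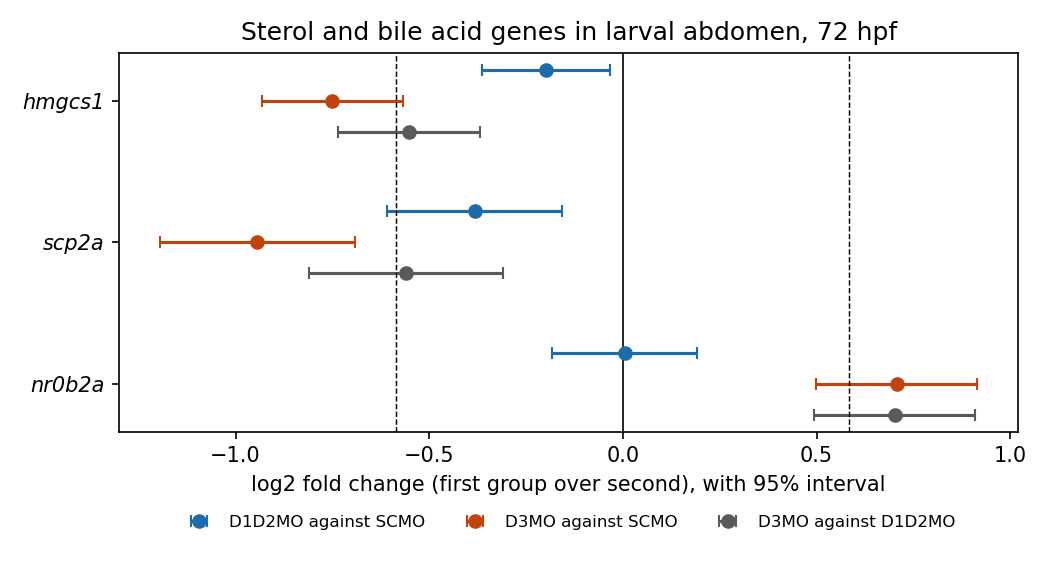
Log2 fold change of hmgcs1, scp2a and nr0b2a (1 named probe each) for both knockdowns against SCMO and for D3MO against D1D2MO. Points are the values of the authors' deposited limma fit, bars the 95% interval, and dashed lines the 1.5-fold threshold in either direction. hmgcs1 and scp2a lie to the left in all 3 contrasts, and nr0b2a lies at 0.0046 in D1D2MO and to the right in both contrasts with D3MO.

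Counted over the contrasts, 0 of the 3 genes were called in D1D2MO against SCMO, where 0.859% of all probes were called. Under the limma fit 2 of the 3, hmgcs1 and scp2a, had an unadjusted p under 0.05 there, as had 20.6% of all probes. All 3 were called in D3MO against SCMO, which their choice fixed and from which nothing is read; 1.09% of all probes were called in that contrast. In D3MO against D1D2MO 1 of the 3 was called, nr0b2a, against 2.16% of all probes, and all 3 had an adjusted p under 0.05 without the fold threshold, against 5.57% of all probes. The direct contrast uses the D3MO samples by which the genes were chosen, so it is not an independent comparison, and its deposited log2FC equals the difference of the other contrasts. D1D2MO against SCMO shares the SCMO samples with the choosing contrast, so it is not independent of the choice either. The choice was made with the D1D2MO values known as well.

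The members differed in how far they lay past the threshold in D3MO. scp2a exceeded the log2FC threshold by 0.36, hmgcs1 by 0.17 and nr0b2a by 0.12, while the called probes nearest to it had log2FC sizes of 0.588 among those that fell and 0.589 among those that rose. The mean log2 intensity over the arrays was 8.58 for hmgcs1, 9.33 for scp2a and 8.31 for nr0b2a, on a probe-specific scale that does not rank the genes by abundance. The SE of scp2a in D3MO against SCMO was larger than that of 69.7% of all probes, that of nr0b2a than 41.3% and that of hmgcs1 than 14.0%. Across all 13270 probes the median log2FC was -0.0008 in D1D2MO against SCMO, -0.011 in D3MO against SCMO and -0.0069 in the direct contrast, so that the values of the members are not shifted by the centre of the distribution. The 3 genes lie on 3 different chromosomes of the RefSeq annotation (GRCz12tu).

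The other genes of the pathways were read from 6 lists with 144 symbols, covering cholesterol synthesis, sterol sensing and uptake, sterol carriers and export, lipoproteins, bile acids and fatty acid oxidation. Beside the members, 7 genes with 11 probes were measured under a name. hmgcs1 was the only one of 26 cholesterol synthesis symbols and scp2a the only one of 18 carrier and export symbols with a named probe, and 0 of 21 symbols for sterol sensing and uptake had one. The level of HMG-CoA reductase, the LDL receptor and the SREBP factors was thus not read here. Only 888 probes (6.69%) had a name, most of them because the gene changed in some body region of the study, so the named genes are not a sample of the pathway. With the probe of smallest p for each gene, 0 of these 7 genes were called in D1D2MO against SCMO (median log2FC -0.25) and 0 in D3MO against SCMO (median 0.14). Of all probes 0.859% and 1.09% were called in these contrasts. Without adjustment, 3 of the 7 had a limma p under 0.05 in either contrast on that probe. The share over all probes, without a choice of probe, was 20.6% in D1D2MO and 11.9% in D3MO. Taking the probe of smallest p favours the genes, so these figures are not like measures. In D3MO against D1D2MO, where 2.16% of all probes were called, 2 rose, 0 fell and the median was 0.33. The lipoprotein component apom was not on the lists and fell in this contrast (log2FC -0.60, limma adjusted p = 0.0130).

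Among lipoprotein genes, apoeb, which encodes apolipoprotein E and is strongly expressed in the yolk syncytial layer, had 3 probes. Their log2FC was -0.38, -0.28 and -0.25 in D1D2MO and 0.20, 0.46 and 0.38 in D3MO, each against SCMO, and none of these was called. In D3MO against D1D2MO they were 0.59, 0.74 and 0.63, of which the latter pair was called with limma adjusted p of 0.0113 and 0.00987, and the probe at 0.59 had an SE of 0.24 and an adjusted p of 0.210. The apolipoprotein of high density particles apoa2 had a log2FC of -0.60 in D1D2MO (SE 0.18, limma adjusted p = 0.143) and -0.11 in D3MO (SE 0.20), and apoa1a had -0.31 and -0.061. apobl, a form of apolipoprotein B, the scaffold of yolk lipoproteins, had -0.088 and 0.14. The probes of apoc1l had 0.0035 and 0.048 in D1D2MO and -0.16 and 0.38 in D3MO, so its probes differed in sign in D3MO. None of the 5 lipoprotein genes on the list passed the test against SCMO, with SE of 0.069 to 0.24. Outside the list, apom had a log2FC of 0.58 in D1D2MO against SCMO (limma adjusted p = 0.0162), short of the fold threshold.

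slc27a2a, whose mammalian counterpart is a very long-chain acyl-CoA synthetase that also activates bile acid precursors, had 2 probes that moved alike. Against SCMO they had a log2FC of -0.25 and -0.23 in D1D2MO and of 0.40 and 0.46 in D3MO. The D1D2MO values had limma adjusted p of 0.101 and 0.155. Those in D3MO had 0.0497 and 0.0450 and did not reach the fold threshold. Between the knockdowns slc27a2a rose in D3MO, by a log2FC of 0.65 on one probe (SE 0.073, limma adjusted p = 0.00785) and 0.69 on the other (SE 0.081, adjusted p = 0.00867). Like nr0b2a it was higher in D3MO than in D1D2MO. Its step was made up of a value below SCMO in one knockdown and one above it in the other, and neither was called. hadh, an enzyme of mitochondrial fatty acid oxidation, had -0.026 in D1D2MO (log2FC, SE 0.076) and -0.084 in D3MO (SE 0.084).

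**Figure D2:**
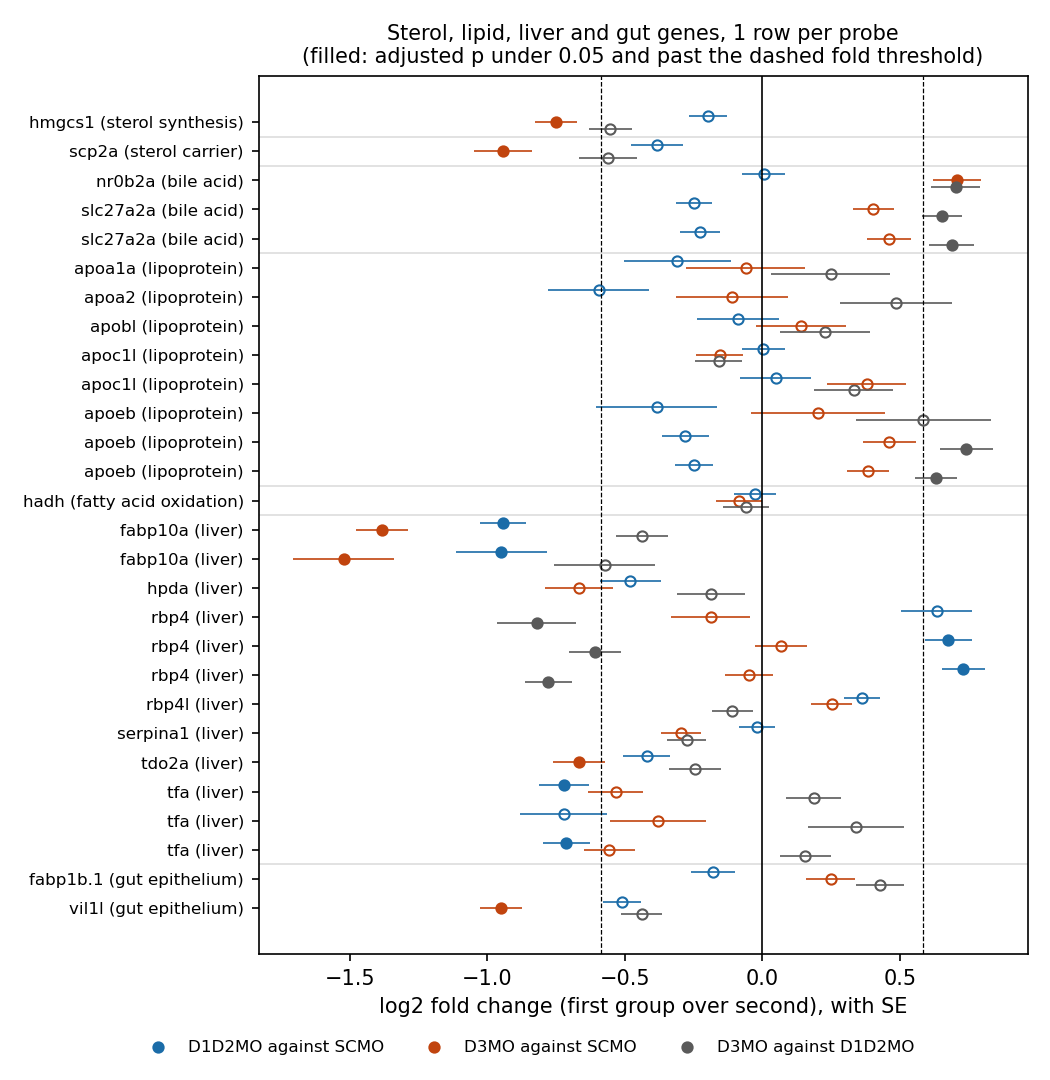
Log2 fold change of the 3 genes, the other named sterol, bile acid, lipoprotein and fatty acid oxidation genes, and named liver and gut markers, with 1 row per probe, for the 3 contrasts. Bars are the SE of the authors' deposited limma fit, filled points were called and dashed lines mark the 1.5-fold threshold. hmgcs1 and scp2a are filled on the left in D3MO against SCMO, as are fabp10a, tdo2a and vil1l. In D3MO against D1D2MO nr0b2a, slc27a2a and 2 probes of apoeb are filled on the right and rbp4 on the left. In D1D2MO against SCMO probes of fabp10a and tfa are filled on the left and probes of rbp4 on the right.

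Defining markers of the tissues in the abdomen moved in the same samples. Of all probes 1.09% were called in D3MO against SCMO and 0.859% in D1D2MO against SCMO. Of 23 liver marker symbols 7 genes were named and measured. In D3MO against SCMO 2 of them fell, the liver fatty acid binding protein fabp10a with a log2FC of -1.38 and the tryptophan dioxygenase tdo2a with -0.67, 0 rose, and the 7 genes ran from -1.38 to 0.25 with a median of -0.56. In D1D2MO fabp10a (-0.94) and transferrin tfa fell while rbp4 rose, and the median was -0.42. In D3MO against D1D2MO, where 2.16% of all probes were called, rbp4 fell, 0 rose and the median was -0.25. Of 9 gut epithelium symbols 2 were measured. The brush border gene vil1l, a villin-like protein, fell in D3MO to a log2FC of -0.95 (SE 0.075, limma adjusted p = 0.00440) and had -0.51 in D1D2MO. The other one, the fatty acid binding protein fabp1b.1, had 0.25 in D3MO and -0.18 in D1D2MO. In D3MO against SCMO hmgcs1 and scp2a lay within the range of these markers, -1.38 to 0.25, and nr0b2a lay above it. Most of all probes had a log2FC between -0.235 and 0.288 there, so lying within the range does not set a gene apart. The place of nr0b2a above it was fixed by the choice of the genes, so nothing is read from either. The part of tissue makeup in the values of the 3 genes was not tested.

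Markers of other tissues moved as well, counted like the liver and gut markers by the probe of smallest p of each gene. The share of all probes called, without such a choice of probe, was 1.09% in D3MO and 0.859% in D1D2MO, each against SCMO. All 5 measured red blood cell genes rose in D3MO (log2FC 0.65 to 2.46) and 2 of 5 in D1D2MO, and both measured smooth muscle genes, acta2 (-1.21) and myh11a (-0.71), fell in D3MO. Of 18 fast muscle genes 7 rose in D3MO and 9 in D1D2MO. Probes of some of these genes differed. In D3MO acta1a was called on a probe with 1.01, while its other probes had 0.24 and 0.23. In D1D2MO tnnt3b was called on a probe with 0.70, and its other probes had 0.22 and -0.24. Most probes of acta1b were called in both knockdowns. Of 7 skin genes 0 were called in D3MO (2 with an unadjusted limma p under 0.05) and 2 rose in D1D2MO. The only measured pancreas gene, ppdpfa, had 2 probes that differed. One fell in D1D2MO (-0.66) and was not called in D3MO (-0.56), and the other had -0.045 (SE 0.096) and 0.010 (SE 0.11). In these lists too the names came mostly from genes that changed in some body region, so their shares are not read as shares of the tissues. Their part in the values of the 3 genes was not tested.

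The named genes with log2FC nearest to each member over both knockdowns against SCMO were taken by Euclidean distance, which uses the choosing contrast and is a description. Nearest to hmgcs1 was sid4 at a distance of 0.017 (log2FC -0.20 in D1D2MO and -0.73 in D3MO), followed by zgc:171859 (0.038), the glycolytic enzyme aldocb (0.11), the glycogen primer gyg1b (0.11) and starmaker, stm, of the otolith matrix (0.13). Nearest to scp2a were vil1l at 0.13, stm at 0.17, fbp2, a fructose-bisphosphatase of gluconeogenesis, at 0.19 (log2FC -0.20 and -0.93), aldocb at 0.20 and zgc:171859 at 0.23. hmgcs1 and scp2a lay 0.27 apart and had 3 of these genes, zgc:171859, aldocb and stm, in common. Around nr0b2a the nearest genes were closer, with ryr1b, the muscle calcium release channel, at 0.0049, myhz1.1, a fast myosin heavy chain, at 0.024, pdlim7 at 0.030, bysl at 0.034 and tgm2a, a transglutaminase, at 0.035. Of these 5, bysl and tgm2a were called in D3MO against SCMO, with limma adjusted p of 0.0176 and 0.0247, and the others had adjusted p of 0.0508 to 0.375. Distances rest on 1 probe per gene, the nearest one where a gene had several, and do not take the SE into account. ryr1b had 3 probes and myhz1.1 had 6, and others of them lay farther off. For example, a ryr1b probe had -0.31 in D1D2MO and 0.48 in D3MO, and a myhz1.1 probe had -0.45 and 0.38.

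**Figure D3:**
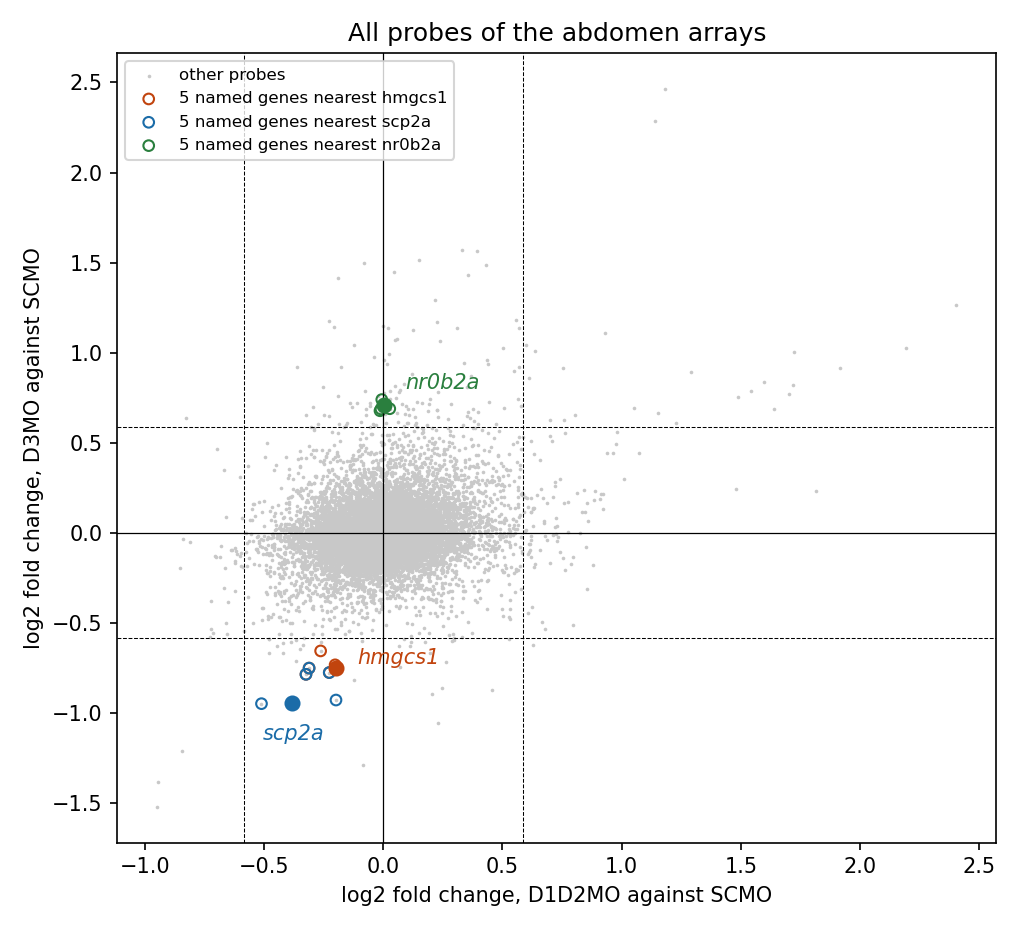
Log2 fold change in D3MO against SCMO (vertical axis) over that in D1D2MO against SCMO (horizontal axis) for all 13270 probes of the authors' deposited table. Filled points are hmgcs1, scp2a and nr0b2a, open circles the 5 named genes nearest to each (3 of them serve both hmgcs1 and scp2a), and dashed lines the 1.5-fold threshold. Both axes share the SCMO samples, so the spread of the cloud along the diagonal is not read. nr0b2a sits at 0.0046 on the horizontal axis, and hmgcs1 and scp2a sit in the lower left at -0.20 and -0.38.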

How the data were processed

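Total RNA of abdomen pools at 72 hpf was labelled with Cy3 and Cy5 and hybridised on 14 Agilent arrays. Arrays were scanned and quantified with GenePix. The authors dropped spots that stayed near background throughout, applied a normal-exponential background correction and within-array loess, and fitted limma, of a version not given in the sources used here. Their deposited log2 fold changes and unadjusted p-values of this fit were used for 3 contrasts, and the authors' shorter tables gave the moderated t (a score) and the mean log2 intensity. The table had 13271 lines, 1 of them a control, which was dropped.

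The Benjamini-Hochberg adjustment was recomputed over 13270 probes (within 2.83e-05 of the deposited FDR), and the SE was the log2FC over the t recovered at 6.93 degrees of freedom. Calls needed an adjusted p under 0.05 and a change over 1.5-fold. Names came from the probe identifiers (671) and accessions (113) listed with the study and from RefSeq accessions (104). The genes named were the 3 members, all named genes of 6 pathway lists, the 5 nearest named genes of each member, and tissue markers from 7 lists. Members and lists were chosen with earlier results of these data known. The procedure was tested on simulated data with 13270 probes for D3MO against SCMO, where 183 of 200 probes with a log2 difference of 1 and 5 others were called. The simulated errors were independent between probes and drawn from the recovered SE and degrees of freedom. The simulation therefore checks the calculation and cannot show whether the SE covers the spread between replicates. Alternatives covered the FDR, the fold threshold, Holm adjustment, adjustment over 1 probe per accession and over all contrasts, averaging over probes, and centring. The number of biological replicates, 4 per group, and that of arrays limit the precision. The software was pandas 2.3.3, numpy 2.4.6 and scipy 1.17.1 under Python 3.11.15, with matplotlib 3.10.9 for figures.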

Additional observations from a re-analysis of the deposited data

Results flagged for a closer look

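The knockdowns differed from each other, by the limma adjusted p of the direct contrast D3MO against D1D2MO, for each of the 3 genes. The log2FC of this contrast was -0.55 for hmgcs1, -0.56 for scp2a and 0.70 for nr0b2a. Of all probes 5.57% had a limma adjusted p under 0.05 in it. With the fold threshold only nr0b2a of the 3 was called, against 2.16% of all probes. The genes had been chosen on the D3MO samples, which are part of this contrast. Among the other pathway genes the same contrast had a log2FC of 0.63 for apoeb and 0.65 for slc27a2a, on the probe of smallest p of each. For apoeb and slc27a2a the measured D1D2MO values lay below SCMO and the D3MO values above it, but none of these was called. In D1D2MO against SCMO their limma adjusted p was over 0.1.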

How the results depend on the processing

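Most alternatives change the adjustment or the threshold and leave the log2FC of the members as it is, so their signs are not a check. In D3MO against SCMO the number of members called fell from 3 to 0 at an FDR of 0.01, 0 at a fold threshold of 1 in log2 and 0 with Holm adjustment. In D3MO against D1D2MO it went from 1 to 0, 0 and 0 under the same settings, and to 3 without a fold threshold. Of the other pathway genes 1, slc27a2a, was called in D3MO against SCMO without a fold threshold, against 0 with it. The counts of all called probes in D1D2MO against SCMO, D3MO against SCMO and the direct contrast were 114, 144 and 286, and became 46, 25 and 116 at an FDR of 0.01, 20, 34 and 44 at a fold threshold of 1, 19, 12 and 17 with Holm, and 408, 245 and 739 without a fold threshold. Averaging over the probes of an accession could change nothing for the members, which have 1 named probe each. It is therefore no check on other probes of these genes. The authors fitted their models to the ratios within arrays, so the deposited contrasts already use that pairing. No paired analysis beyond it was possible because the values used here are contrasts, without those of single arrays, which were not analysed here. For the same reason leaving out replicates was not run. The numbers of replicates and arrays and the signal over background limit what can be seen, and dim probes were left out by the authors beforehand.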

Other observations

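The 12 further lipid genes that lie outside the lists, chosen after it was seen which genes had a name, were looked up in the same contrasts. In D1D2MO against SCMO 1 of them fell, fa2h, the fatty acid hydroxylase of sphingolipid synthesis, with a log2FC of -0.72 (SE 0.097, limma adjusted p = 0.0185), and its value in D3MO was -0.58 (adjusted p = 0.0525). Of all probes 0.859% were called in D1D2MO against SCMO. In D3MO against SCMO 0 of the 12 were called in the limma fit, against 1.09% of all probes. There 5 of the 12 had an unadjusted limma p under 0.05, as had 11.9% of all probes. In D3MO against D1D2MO, where 2.16% of all probes were called, 3 fell and 0 rose. They were the muscle-type fatty acid binding protein fabp3 with a log2FC of -0.89 (SE 0.076, limma adjusted p = 0.00346), the lipoprotein component apom with -0.60 (SE 0.081, adjusted p = 0.0130) and auh, an enzyme of leucine breakdown whose product enters ketone body synthesis, with -0.69 (SE 0.15, adjusted p = 0.0498). fabp3 and apom had positive log2FC in D1D2MO, 0.58 in both, just under the fold threshold. acat1, an acetoacetyl-CoA thiolase, had log2FC values against SCMO of 0.32 (D1D2MO) and -0.29 (D3MO), and -0.61 between the knockdowns (SE 0.16, limma adjusted p = 0.0807). sult2st2, a steroid sulfotransferase, had 0.030 in D1D2MO and -0.10 in D3MO.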
